A study of Mus musculus with 12 samples.

Results

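The genes described here carry a cell from G1 into S phase and copy its DNA: G1 cyclins, factors that license and fire replication origins, proteins of the replication fork, enzymes that supply deoxynucleotides, and proteins that rebuild chromatin behind the fork. They are 37 genes taken by symbol. All 37 were present in each of the 12 libraries' gene tables of 23420 genes, and all 37 passed the filter on low counts that left 13693 genes for testing. Of these 37, Orc1, Cdc6, Dtl and Chaf1b passed only through the DKO libraries described next, where they were high.

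The libraries hold RNA from livers of C57BL/6 mice, as 6 groups with 2 libraries each, and every group carries floxed alleles of Gdown1 (gene Polr2m), which associates with RNA polymerase II. FF livers (7 weeks) keep Gdown1, and KO livers (7 weeks) have it deleted by Alb-Cre, a recombinase driven by the albumin promoter and so active in hepatocytes. The p53KO and DKO livers (8 weeks) are both p53 null, and DKO livers additionally have Gdown1 deleted by Alb-Cre. Livers of the p53KO TAM and DKO TAM groups are p53 null too and were collected 24 hours after tamoxifen (TAM), which switches on the inducible Alb-CreERT2 of the DKO TAM mice. The genotype of p53KO TAM names no Cre, so an effect of Cre or of its activation cannot be told apart from the deletion, and age and tamoxifen differ between the pairs of groups. The labels do not say that replicates are separate animals, and the p-values therefore measure only the spread between these libraries, which may be technical.

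In G1, the origin recognition complex, Cdc6 and Cdt1 load the ring-shaped Mcm2-7 helicase onto origins, a step called licensing. Cyclin D and cyclin E kinases relieve the block that Rb family proteins place on E2F transcription factors, and Cdc45, the GINS complex and Mcm10 turn the loaded rings into working helicases. Adult hepatocytes rarely divide but can return to the cell cycle when liver tissue is lost or damaged, and p53 restrains that return largely through the Cdk inhibitor p21, the product of Cdkn1a.

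Promoter sequence is shown for 10 members, picked with their values and motifs known as examples of promoters with and without 2 motifs that are common in cell cycle genes. RefSeq promoters (GRCm38.p6, 250 bases before to 50 bases after the first listed start of each gene) were matched for 31 of the 37 members. Printed here are the 250 bases before the start, 5′ to 3′ on the gene's strand. Capitals mark E2F motifs (TTCCCGC or TTCGCGC or TTGCCGC or TTGGCGC) and the CCAAT box, each on either strand; E2F motifs can overlap each other, in which case the capitals run together.
Mcm5: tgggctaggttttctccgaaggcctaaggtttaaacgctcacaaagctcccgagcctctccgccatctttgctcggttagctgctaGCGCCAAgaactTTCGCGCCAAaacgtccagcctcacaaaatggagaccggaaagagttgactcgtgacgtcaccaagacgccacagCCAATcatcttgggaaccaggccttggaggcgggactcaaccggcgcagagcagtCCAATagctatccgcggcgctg
Mcm6: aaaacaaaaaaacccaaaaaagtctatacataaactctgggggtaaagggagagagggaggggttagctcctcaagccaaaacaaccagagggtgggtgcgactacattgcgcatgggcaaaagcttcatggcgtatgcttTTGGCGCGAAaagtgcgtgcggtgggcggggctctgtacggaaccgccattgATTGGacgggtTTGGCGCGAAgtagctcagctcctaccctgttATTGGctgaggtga
Orc1: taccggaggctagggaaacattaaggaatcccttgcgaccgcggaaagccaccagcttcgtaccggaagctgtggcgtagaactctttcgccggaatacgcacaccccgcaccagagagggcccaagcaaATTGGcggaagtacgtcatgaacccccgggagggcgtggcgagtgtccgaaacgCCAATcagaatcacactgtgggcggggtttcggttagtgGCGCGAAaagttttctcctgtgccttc
Dtl: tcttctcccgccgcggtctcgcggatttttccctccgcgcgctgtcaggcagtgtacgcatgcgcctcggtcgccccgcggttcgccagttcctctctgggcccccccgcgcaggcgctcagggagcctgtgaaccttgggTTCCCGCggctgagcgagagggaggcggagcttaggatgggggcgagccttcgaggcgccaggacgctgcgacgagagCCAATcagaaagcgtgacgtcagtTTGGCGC
Rrm2: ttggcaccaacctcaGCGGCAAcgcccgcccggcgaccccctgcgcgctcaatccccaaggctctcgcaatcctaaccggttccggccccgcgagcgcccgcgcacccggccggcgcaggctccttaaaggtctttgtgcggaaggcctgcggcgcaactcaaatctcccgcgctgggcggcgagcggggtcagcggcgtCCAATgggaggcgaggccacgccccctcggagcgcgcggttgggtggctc
Uhrf1: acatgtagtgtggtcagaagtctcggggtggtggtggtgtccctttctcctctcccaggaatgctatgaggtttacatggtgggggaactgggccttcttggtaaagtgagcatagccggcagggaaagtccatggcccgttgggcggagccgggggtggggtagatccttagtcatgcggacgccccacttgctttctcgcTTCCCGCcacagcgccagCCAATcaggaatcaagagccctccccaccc
Clspn: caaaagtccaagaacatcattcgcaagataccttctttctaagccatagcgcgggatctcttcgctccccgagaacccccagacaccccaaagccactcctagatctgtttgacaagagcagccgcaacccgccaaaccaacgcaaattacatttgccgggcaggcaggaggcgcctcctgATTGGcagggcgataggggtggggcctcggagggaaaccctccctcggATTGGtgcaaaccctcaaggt
Ccne1: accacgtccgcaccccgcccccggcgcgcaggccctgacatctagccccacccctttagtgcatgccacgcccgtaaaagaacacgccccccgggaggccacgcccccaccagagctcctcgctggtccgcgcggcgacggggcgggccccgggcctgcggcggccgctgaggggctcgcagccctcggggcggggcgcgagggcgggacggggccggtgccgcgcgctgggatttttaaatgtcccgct
Mcm10: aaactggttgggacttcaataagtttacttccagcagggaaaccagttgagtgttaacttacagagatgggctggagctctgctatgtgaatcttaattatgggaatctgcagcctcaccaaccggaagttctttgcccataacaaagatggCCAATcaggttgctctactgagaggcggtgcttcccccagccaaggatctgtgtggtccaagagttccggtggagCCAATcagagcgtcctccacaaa
Tk1: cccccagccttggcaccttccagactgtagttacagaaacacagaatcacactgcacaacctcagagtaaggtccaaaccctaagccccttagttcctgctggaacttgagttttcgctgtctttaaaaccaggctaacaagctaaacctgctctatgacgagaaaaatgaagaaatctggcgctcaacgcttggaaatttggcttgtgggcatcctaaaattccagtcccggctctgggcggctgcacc
The first 8 belong to genes that rose in DKO livers. Mcm6 (chr1:128359706-128359955, minus strand) holds 4 E2F motifs, in 2 overlapping pairs, and Mcm5 (chr8:75109259-75109508, plus strand) holds 3. Orc1 (chr4:108579204-108579453, plus strand), Dtl (chr1:191575545-191575794, minus strand), Rrm2 (chr12:24708004-24708253, plus strand) and Uhrf1 (chr17:56303087-56303336, plus strand) hold both motifs as well. Clspn (chr4:126556730-126556979, plus strand) has CCAAT boxes and no E2F motif here, and Ccne1 (chr7:38107491-38107740, minus strand) has neither. Of all 25 matched members that rose in DKO, 11 held both motifs in these 250 bases, 2 an E2F motif alone, 5 a CCAAT box alone and 7 neither. The 25 include Orc1, Cdc6, Dtl and Chaf1b, which passed the filter only through DKO and all held an E2F motif. Of the 5 matched members that were not called there, 2 held both, so a rise did not go with the motifs in every gene. Mcm10 (chr2:5012792-5013041, minus strand), which fell in DKO and KO livers, has 2 CCAAT boxes and no E2F motif here, and Tk1 (chr11:117826015-117826264, minus strand) has neither. Over the full 300 bases, 19 of 31 member promoters (61.3%) held an E2F motif, against 9.69% of all 27025 promoters in the table. The CCAAT box was in 21 (67.7%) against 37.9%. The CHR element of late cell cycle genes (TTTGAA or TTCGAA) was in 5 (16.1%) against 19.4%. Member promoters had a median GC content of 57.7%, against 52.7% over all of them, and motif shares were not matched for this.

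Libraries held 4939408 to 8776369 counts, and levels are given as CPM, counts scaled to a common library total, after TMM scaling. Depending on the library, 3 counts amount to between 0.254 and 0.678 CPM. Differences are log2 fold changes with their SE, and a gene was called when its Benjamini-Hochberg adjusted p over all 13693 genes in edgeR's quasi-likelihood test was under 0.05. Polr2m, the deleted gene, was at 100.3 and 96.7 CPM in FF, 64.7 and 59.4 in KO, 89.1 and 103 in p53KO, 58.1 and 60.0 in DKO, 75.9 and 78.7 in p53KO TAM and 65.9 and 54.6 in DKO TAM libraries. It fell by 1.59-fold in KO and 1.62-fold in DKO livers, although with library totals as the scale its log2 fold change in DKO was 0.07; its log2 fold change in DKO TAM livers was -0.36 ± 0.13 (adjusted p = 0.063), and -0.50 with DKO TAM replicate 1 left out (0.040). Trp53, the gene of p53, was at 13.1 and 7.94 CPM in FF and 17.1 and 22.5 in KO, and in the p53-null groups at 3.07 and 2.79 in p53KO, 8.39 and 8.13 in DKO, 3.79 and 3.97 in p53KO TAM and 8.96 and 10.01 in DKO TAM libraries. It was called higher in KO (0.93 ± 0.24, adjusted p = 0.013, lost with FF replicate 2 (0.20) or KO replicate 2 (0.14) left out), in DKO (1.48 ± 0.29, 5.0e-04) and in DKO TAM (1.29 ± 0.28, 0.0039, lost with p53KO TAM replicate 1 (0.052) left out). Values per gene do not show whether these reads come from the deleted part. Albumin transcripts made up 1.80% to 6.27% of counts in every library. The median over all tested genes was 0.02 for KO against FF and 0.01 in each of the other deletion comparisons on the TMM scale. With library totals as the scale these medians became 0.28, 0.78 and 0.36, a shift that applies to every gene, and members higher and lower then numbered 9 and 0 in KO, 34 and 1 in DKO, and 9 and 1 in DKO TAM.

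Across the 37 genes, DKO livers stood apart from all others. Both DKO libraries lay above all 10 other libraries for 32 of the 37 genes; the exceptions were Mcm10, Gins1, Tk1, Ung and Slbp. The same held for 19.7% of all tested genes. Orc1, Cdc6, Dtl and Chaf1b are among the 32, and they passed the filter only because they were high in DKO. All tested genes include further genes of this kind. Against p53KO, 30 of the 37 rose and 1 fell, and 26 rose by at least 2-fold, where 25.7% of all tested genes were higher and 25.7% were lower (51.4% called in all). The median log2 fold change of the 37 was 1.80. Without the 4 genes that passed the filter only through DKO, 26 of 33 rose and 1 fell, with a median of 1.66, where 23.3% of the genes that passed without DKO were higher. In KO against FF, 7 rose and 3 fell, with a median of 0.39, where 6.92% of all tested genes were higher and 7.88% lower (14.8% called). In DKO TAM against p53KO TAM, 4 rose and 3 fell, with a median of 0.17, where 8.61% were higher and 10.1% lower (18.7% called), so the members' share called was close to that of all genes.

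**Figure D1:**
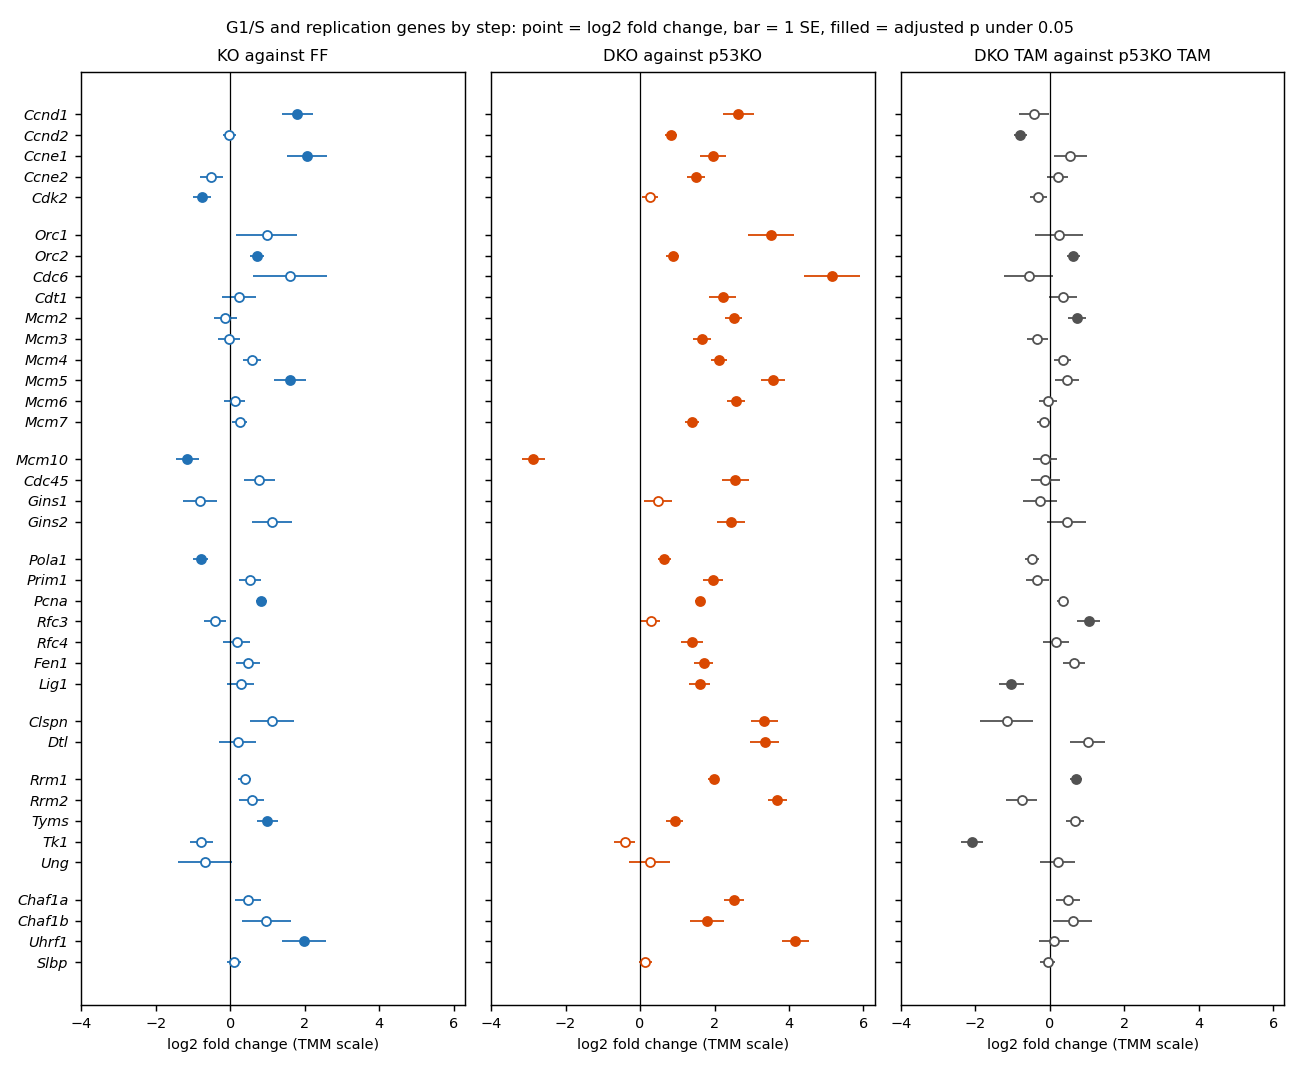
Log2 fold change (x axis, TMM scale) of each of the 37 genes (y axis, grouped from top to bottom as G1 cyclins and Cdk2, licensing, helicase activation, fork synthesis, fork surveillance and Cdt1 turnover, nucleotide supply, chromatin) in 3 comparisons; bars are 1 SE and filled points have an adjusted p under 0.05. In DKO against p53KO 31 points are filled and Mcm10 alone lies far left, while 10 are filled in KO against FF and 7 in DKO TAM against p53KO TAM.

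Between the p53KO and FF controls 0 of the 37 were called by edgeR, where 0.592% of all tested genes were higher and 0.27% lower (0.862% called), and the median log2 difference was 0.13. At an unadjusted p under 0.05 there were 3: Ccne1, Mcm10 and Pcna. The widest differences were Ccne1 at 1.67 ± 0.58 (adjusted p = 0.23) and Mcm10 at 1.09 ± 0.29 (adjusted p = 0.16). These 2 groups also differ in age. DESeq2 called 1 of the 37, as did a fit on these 4 libraries alone.

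Among the G1 cyclins, Ccnd1 and Ccne1 rose in both chronic deletions. Ccnd1 (chr7:144929931-144939925, minus strand) encodes cyclin D1, the cyclin that links growth signals to Cdk4 and Cdk6. Its level was 37.3 and 23.8 CPM in FF, 76.1 and 135 in KO, 24.1 and 25.7 in p53KO and 136 and 174 in DKO libraries. KO and DKO libraries were all above all FF and p53KO libraries, with log2 fold changes of 1.80 ± 0.42 (adjusted p = 0.029) and 2.64 ± 0.43 (adjusted p = 0.0014). Here and in the next paragraphs, brackets after a left-out library hold the adjusted p without it: the call in KO was lost with FF replicate 1 (0.064), FF replicate 2 (0.16) or KO replicate 2 (0.11) left out. After tamoxifen Ccnd1 stood at 69.2 and 50.3 CPM in p53KO TAM and 59.0 and 30.7 in DKO TAM libraries, so the groups overlapped.

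Ccne1, the cyclin E gene whose product drives Cdk2 at the G1/S boundary, went from 0.678 and 0.518 CPM in FF to 2.88 and 2.11 in KO libraries, and from 1.54 and 2.36 in p53KO to 6.61 and 8.39 in DKO libraries. Its rise was 4.18-fold in KO and 3.90-fold in DKO, and the difference between those effects was -0.10 on the log2 scale with a 95% interval of -1.53 to 1.32. Each FF library held only 3 counts of Ccne1, so the size of the rise in KO is uncertain, and the call there was lost with FF replicate 1 (0.061), FF replicate 2 (0.14) or KO replicate 1 (0.11) left out. Ccne2, the other cyclin E gene, rose in DKO livers (1.51 ± 0.24, adjusted p = 8.2e-05) and stood at -0.51 in KO; the effects differed by 2.02 (adjusted p = 0.0020). Of Ccne2's exon length, 53.9% overlaps Ints8, and counting took no account of strand in the 4 libraries at 7 weeks, whose files record the command; for the others this is not given in the sources used here. Its counts may leave out or share reads of much of the gene. Ccnd2, for cyclin D2, moved in opposite directions: 21.7 and 22.3 CPM in p53KO against 42.4 and 36.0 in DKO, and 22.9 and 26.9 in p53KO TAM against 15.5 and 12.9 in DKO TAM libraries. The rise was 0.83 ± 0.16 (adjusted p = 4.4e-04), the fall -0.80 ± 0.17 (adjusted p = 0.0042), and no libraries overlapped in either. With library totals as the scale the fall was -0.45 and was not called (adjusted p = 0.060). Cdk2, the kinase partner of cyclin E, was lower in KO (-0.76 ± 0.24, adjusted p = 0.044) and stood at 0.27 in DKO livers (adjusted p = 0.31), and the call in KO was lost with FF replicate 1 (0.12), FF replicate 2 (0.16), KO replicate 1 (0.24) or KO replicate 2 (0.067) left out.

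All 8 licensing genes that passed the filter without the DKO libraries rose in DKO livers, and Orc1 and Cdc6, which passed only through them, were called higher too. The rise was 1.83-fold (Orc2) to 11.8-fold (Mcm5) over the 9 of these 10 genes with more than 3 counts in p53KO. Orc1, the subunit of the origin recognition complex whose amount varies with the cell cycle in mammals, rose from 0.171 and 0.643 CPM to 3.99 and 5.14. Orc2, a constitutive subunit, rose less: it stood at 14.9 and 12.7 in p53KO and 26.1 and 24.6 in DKO libraries. Cdt1, the loader that must be destroyed once S phase begins, rose by 2.22 ± 0.36 (adjusted p = 8.6e-05). Cdc6, the ATPase that recruits the Mcm ring, had 1 count in the 2 p53KO libraries together and 94 in the 2 DKO libraries. That is a ratio of 42.1 after scaling, with a 95% exact binomial interval of 7.37 to 1679 that covers counting error only.

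The 6 subunits of the Mcm2-7 ring showed different sizes of rise. In DKO against p53KO the log2 fold changes were 3.56 ± 0.32 for Mcm5, 2.58 ± 0.24 for Mcm6, 2.52 ± 0.23 for Mcm2, 2.11 ± 0.21 for Mcm4, 1.66 ± 0.25 for Mcm3 and 1.39 ± 0.18 for Mcm7, with adjusted p of at most 3.6e-05. Mcm5 (chr8:75109528-75128439, plus strand) stood at 2.39 and 2.36 CPM in p53KO and 26.5 and 30.0 in DKO libraries. In KO livers Mcm5 was the only subunit called: 1.36 and 2.07 CPM in FF and 5.76 and 5.0 in KO libraries (1.61 ± 0.43, adjusted p = 0.017), while the other 5 subunits stood between -0.13 and 0.58. That call was lost with FF replicate 1 (0.11), FF replicate 2 (0.059) or KO replicate 1 (0.089) left out. In DKO TAM livers Mcm2 alone was called (0.74 ± 0.24, adjusted p = 0.042), with 7.28 and 5.43 CPM in p53KO TAM and 9.79 and 11.9 in DKO TAM libraries, and its call was lost with p53KO TAM replicate 1 (0.074), p53KO TAM replicate 2 (0.23) or DKO TAM replicate 2 (0.21) left out.

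**Figure D2:**
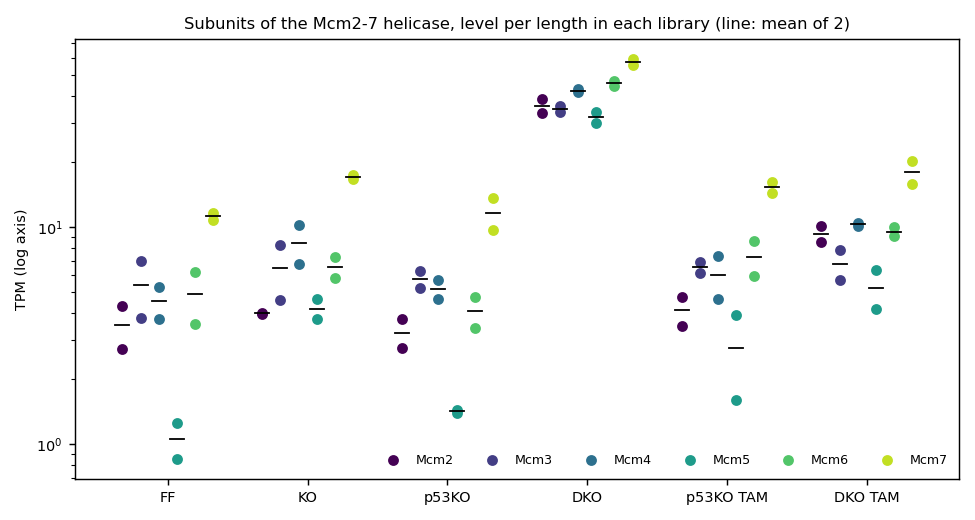
TPM (log y axis, counts per length scaled to 1 total per library, without TMM scaling) of Mcm2, Mcm3, Mcm4, Mcm5, Mcm6 and Mcm7 in each library (points) by group (x axis), with the mean of 2 libraries as a line. Mcm7 is the highest in all 12 libraries and Mcm5 the lowest in 11, and the subunits lie closest together in DKO livers.

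Per length, the ring subunits were unequal in the control livers and nearer to each other in DKO livers. TPM, which corrects counts for exon length and library total, is used here only to compare genes within a library. Mcm7 was the highest of the 6 in all 12 libraries, and Mcm5 the lowest in 11, with Mcm2 lowest in KO replicate 1. Relative to the median subunit, Mcm5 averaged 0.24 in FF, 0.31 in p53KO, 0.66 in KO and 0.81 in DKO libraries, and 0.44 in p53KO TAM against 0.57 in DKO TAM. Mcm7 averaged 2.52, 2.51, 2.73 and 1.46 in FF, p53KO, KO and DKO. These ratios are descriptions, with 2 libraries behind each mean. Mcm5 had only 6 and 12 counts in the FF libraries and 14 and 11 in the p53KO libraries, so its ratios there are uncertain. In the 2 FF libraries they were 0.15 and 0.34.

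Genes of helicase activation did not move as a block. Cdc45, which joins Mcm2-7 to form the active helicase, rose in DKO livers from 1.54 and 1.72 to 11.1 and 8.13 CPM (2.56 ± 0.37, adjusted p = 2.3e-05). Gins2, a GINS subunit, rose as well (2.45 ± 0.38, adjusted p = 5.4e-05), and 11.4% of its exon length overlaps Gse1. Its partner Gins1 was at 3.76 and 2.57 CPM in p53KO and 3.65 and 5.31 in DKO libraries, which overlapped (0.48 ± 0.37, adjusted p = 0.29). None of the 4 genes was called in DKO TAM livers.

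Mcm10 went against the other members. Mcm10 (chr2:4990724-5012791, minus strand) encodes a scaffold needed to start unwinding and is no part of the Mcm2-7 ring. It stood at 105 and 136 CPM in FF, 50.3 and 58.2 in KO, 252 and 263 in p53KO and 41.0 and 29.7 in DKO libraries. Thus it fell by 2.22-fold in KO (-1.15 ± 0.30, adjusted p = 0.035) and by 7.28-fold in DKO livers (-2.86 ± 0.31, adjusted p = 5.8e-05), with no overlap, and the fall was larger in DKO (-1.71, adjusted p = 0.020). The call in KO was lost with FF replicate 1 (0.059), FF replicate 2 (0.18), KO replicate 1 (0.18) or KO replicate 2 (0.12) left out, and the difference between the effects with FF replicate 1 (0.072), KO replicate 2 (0.078), p53KO replicate 1 (0.066), p53KO replicate 2 (0.066) or DKO replicate 3 (0.068) left out. In p53KO TAM it was at 36.1 and 38.4 CPM and in DKO TAM at 45.9 and 21.5. The 2 p53-null control groups, which differ in tamoxifen and possibly in age, thus lay far apart for this gene. Per length Mcm10 was the highest of all 37 in the 4 FF and p53KO libraries, at 64.7 to 156 TPM, and it made up 49.2% and 50.2% of the members' summed CPM in the p53KO libraries. Without Mcm10 the members summed to 237 to 261 CPM in FF and p53KO, 333 and 373 in KO, 833 and 883 in DKO, 282 and 311 in p53KO TAM, and 273 and 302 in DKO TAM libraries. No other gene of the tables overlaps Mcm10's exons. Whether these reads come from full-length Mcm10 transcripts was not tested, since the tables hold 1 value for each gene.

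**Figure D3:**
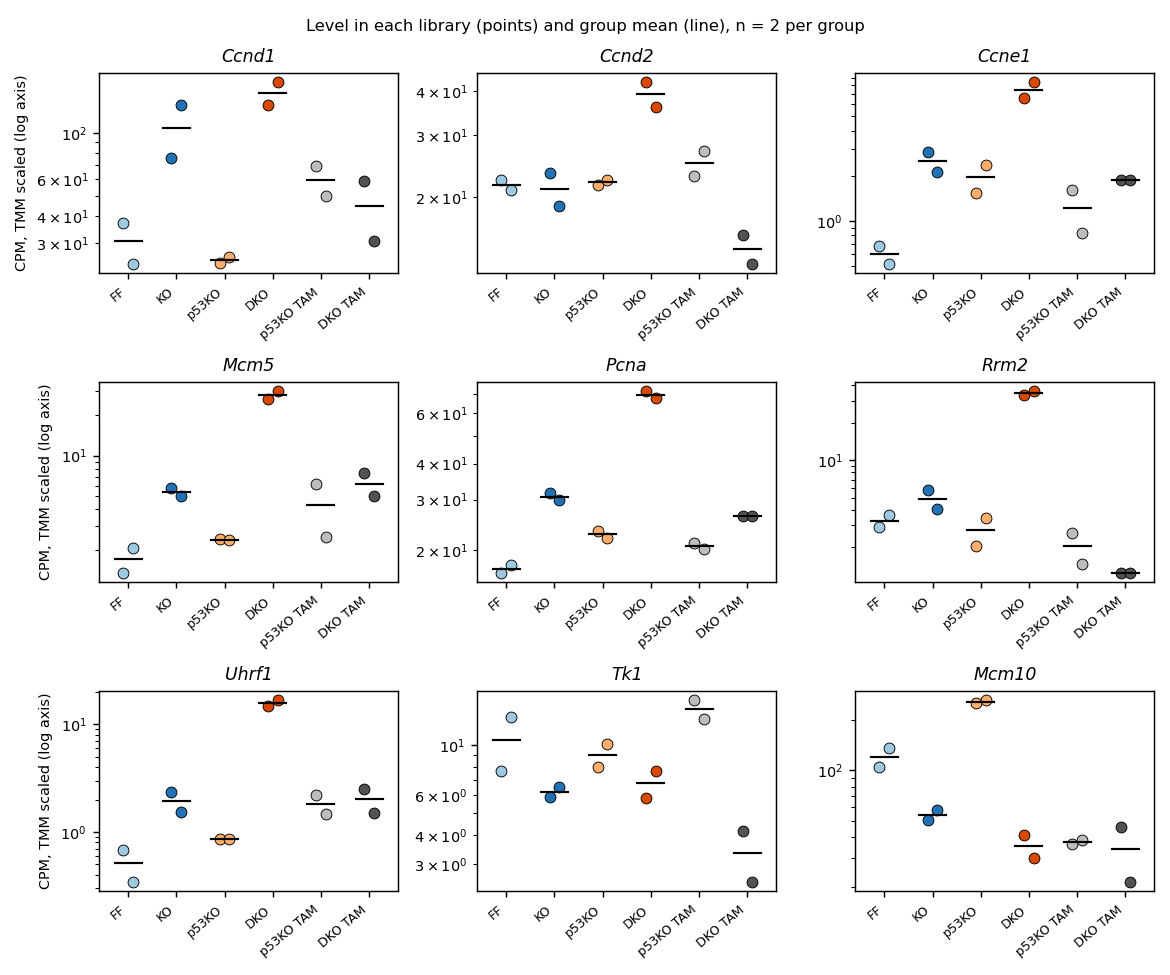
CPM (log y axes, TMM scaled, each panel with its own range) of 9 members in each library (points) by group (x axis), with the mean of 2 libraries as a line. Ccnd1, Ccne1, Mcm5, Pcna, Rrm2 and Uhrf1 peak in DKO livers, Mcm10 peaks in p53KO and is low in DKO, and Tk1 and Ccnd2 are lowest in DKO TAM.

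At the fork, 6 of 7 synthesis genes rose in DKO livers, at 1.57-fold to 3.90-fold. Pcna (chr2:132249286-132253180, minus strand), the sliding clamp that holds polymerases on DNA, was at 16.7 and 17.8 CPM in FF, 31.7 and 29.8 in KO, 23.4 and 22.1 in p53KO and 71.4 and 67.7 in DKO libraries. It rose by 0.83 ± 0.15 in KO (adjusted p = 0.0011) and 1.61 ± 0.13 in DKO (adjusted p = 5.6e-08), and the rise in DKO was larger by 0.78 (adjusted p = 0.0095). Among the 10 calls in KO livers, that of Pcna was the only one kept whichever library was left out and under every alternative scaling, filter and tool; it does not reach a 2-fold minimum. In DKO TAM it stood at 21.3 and 20.3 against 26.4 and 26.4 CPM, with no overlap but an adjusted p of 0.094.

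Polymerase alpha and its primase lay the first primer of each strand. Pola1, the catalytic subunit, fell in KO livers from 20.6 and 19.2 to 12.5 and 10.2 CPM (-0.80 ± 0.20, adjusted p = 0.013) and rose in DKO from 20.8 and 15.2 to 29.2 and 27.7 (0.65 ± 0.18, adjusted p = 0.0056). Prim1, the primase, rose in DKO by 1.96 ± 0.27 (adjusted p = 1.5e-05) and was at 0.53 in KO (adjusted p = 0.28). The opposite effects on Pola1 differed by 1.44 (adjusted p = 0.0012). Its rise in DKO was lost without p53KO replicate 2 (adjusted p = 0.085), and its fall in KO with FF replicate 1 (0.068) or KO replicate 2 (0.10) left out.

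Fen1, the nuclease that trims Okazaki fragments, and Lig1, the ligase that seals them, rose in DKO by 3.28-fold and 3.02-fold (adjusted p = 3.3e-05 and 1.3e-04). Lig1 went the other way after tamoxifen: 5.24 and 5.22 CPM in p53KO TAM against 2.71 and 2.38 in DKO TAM (-1.03 ± 0.35, adjusted p = 0.048), a call lost without any 1 of those 4 libraries (adjusted p = 0.18 and 0.14 without p53KO TAM replicate 1 or 2, 0.11 and 0.18 without DKO TAM replicate 1 or 2). Of the clamp loader genes, Rfc4 rose in DKO (1.40 ± 0.29, adjusted p = 8.4e-04), with 13.2% of its exon length shared with Eif4a2. Rfc3 was at 0.28 there (adjusted p = 0.39) and rose in DKO TAM from 3.21 and 2.51 to 5.42 and 6.63 CPM (1.04 ± 0.31, adjusted p = 0.028), a call lost with p53KO TAM replicate 1 (0.091), p53KO TAM replicate 2 (0.15) or DKO TAM replicate 2 (0.14) left out.

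Clspn, which relays stalled forks to the checkpoint kinase Chk1, and Dtl, the adaptor that marks Cdt1 for destruction in S phase, both rose in DKO livers. Clspn went from 1.37 and 1.5 to 13.2 and 15.9 CPM and Dtl from 0.854 and 0.643 to 8.14 and 7.62, or 10.1-fold and 10.2-fold (adjusted p = 1.3e-06 and 2.7e-06). Neither was called in KO (1.11 and 0.20) or DKO TAM livers (-1.16 and 1.02).

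Ribonucleotide reductase makes deoxynucleotides from ribonucleotides, and both of its replication subunits rose in DKO livers. Rrm2, the subunit limiting in S phase, went from 2.05 and 3.43 to 33.7 and 35.9 CPM (3.69 ± 0.27, adjusted p = 1.4e-08), and Rrm1, the large subunit, from 16.4 and 18.0 to 68.7 and 66.5 (1.98 ± 0.15, adjusted p = 2.7e-08). In DKO TAM Rrm1 rose (12.7 and 14.0 CPM against 19.9 and 23.5; 0.71 ± 0.16, adjusted p = 0.0062), while Rrm2 stood at 2.62 and 1.46 against 1.25 and 1.25 (-0.76 ± 0.41, adjusted p = 0.22). The call for Rrm1 there was lost with p53KO TAM replicate 1 (0.079) or DKO TAM replicate 2 (0.062) left out.

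Tyms and Tk1 are separate sources of thymidylate, the first by methylation of dUMP and the other by salvage of thymidine. Tyms rose in KO from 3.16 and 4.15 to 7.28 and 7.5 CPM (0.99 ± 0.27, adjusted p = 0.022) and in DKO from 5.46 and 5.58 to 9.75 and 11.4 (0.94 ± 0.23, adjusted p = 0.0028), and its effects differed by -0.06 (95% interval -0.93 to 0.82). The call in KO was lost with FF replicate 1 (0.14), FF replicate 2 (0.058), KO replicate 1 (0.076) or KO replicate 2 (0.096) left out. Tk1 was not called in DKO: it stood at 8.02 and 10.1 CPM in p53KO and 5.85 and 7.70 in DKO libraries (-0.41 ± 0.28, adjusted p = 0.24). In DKO TAM it was at 4.17 and 2.5 CPM against 15.7 and 12.9 in p53KO TAM, a fall of 4.25-fold (-2.09 ± 0.30, adjusted p = 1.4e-04) that was called under every alternative run. In KO it became called with FF replicate 1 left out (-1.10, adjusted p = 0.041). Ung, which cuts uracil out of DNA, was near the limit of the counts, with 2.22 and 0.858 CPM in p53KO and 1.44 and 2.40 in DKO libraries, and was called in no comparison.

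Of the chromatin genes, Uhrf1, which carries DNA methylation through replication, rose most. It was at 0.678 and 0.345 CPM in FF, 2.37 and 1.54 in KO, 0.854 and 0.858 in p53KO and 14.8 and 16.7 in DKO libraries, a rise of 3.92-fold in KO (adjusted p = 0.033) and 18.0-fold in DKO livers (adjusted p = 1.3e-07). The call in KO was lost with FF replicate 1 (0.066), FF replicate 2 (0.25) or KO replicate 1 (0.21) left out. The subunits of CAF-1, which places histones on new DNA, rose in DKO by 2.52 ± 0.27 for Chaf1a and 1.80 ± 0.46 for Chaf1b (adjusted p = 8.9e-07 and 0.0039). The call for Chaf1b was lost without DKO replicate 3 (adjusted p = 0.056). Slbp, which binds the stem-loop of histone mRNA, was at 13.7 and 18.9 CPM in p53KO and 19.0 and 16.7 in DKO and between -0.06 and 0.14 in the 3 comparisons.

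The calls were tested against leaving out each library in turn. Of 31 calls in DKO, 29 held whichever library was left out, the exceptions being Pola1 and Chaf1b. Of the 10 in KO, only that of Pcna did. The count of members higher in KO fell from 7 to 1 without FF replicate 1, 1 without FF replicate 2, 2 without KO replicate 1 and 4 without KO replicate 2, and the count lower from 3 to 1, 1, 1 and 0. The median of the 37 in KO stayed between 0.31 and 0.44. In DKO TAM the calls for Ccnd2 and Tk1 held, and the count higher fell from 4 to 0 without p53KO TAM replicate 1, 2 without p53KO TAM replicate 2 and 0 without DKO TAM replicate 2; without DKO TAM replicate 1 it was 4. There Mcm10 also became called, at -0.79 (adjusted p = 0.023).

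Whether the deletion acted differently with and without p53, and 24 hours after it, was tested on the effects themselves. The effect in DKO exceeded that in KO for 21 of the 37 genes and was below it for 1 (Mcm10), where 9.75% of all tested genes were higher and 12.9% lower (22.7% called). It exceeded the effect in DKO TAM for 25 and was below it for 1 (Mcm10), where 13.4% were higher and 14.2% lower (27.6% called). Dtl is among the 21, and Orc1, Cdc6 and Dtl are among the 25. These genes entered the test only because they were high in DKO, as did some of all tested genes. Of these differences 11 of 22 and 19 of 26 held whichever library was left out, and the 21 became 13 without FF replicate 1 or without KO replicate 2. The pairs differ in age or tamoxifen as well as in p53 or time, and these cannot be told apart. For Orc2 the effects in DKO and KO differed by 0.15, with a 95% interval of -0.48 to 0.79, and Ccne1 and Tyms also had differences near 0. Orc2 was the only member called higher in all 3 deletions, at 0.72 ± 0.19, 0.87 ± 0.17 and 0.63 ± 0.18, with adjusted p of 0.016, 5.1e-04 and 0.022. Its call was lost in KO with FF replicate 1 (0.055), FF replicate 2 (0.13), KO replicate 1 (0.055) or KO replicate 2 (0.089) left out, and in DKO TAM with p53KO TAM replicate 1 (0.23) or DKO TAM replicate 2 (0.14) left out.

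Of 46 tested replication genes outside the 37, 27 rose and 0 fell by edgeR, with a median of 0.74, where 25.7% of all tested genes were higher (1 of the 46 was lower at an unadjusted p under 0.05, and DESeq2 called 25 higher and 0 lower). They included Dbf4 (2.19 ± 0.22), the activator of the kinase that fires origins, and Pole (2.79 ± 0.32), the leading strand polymerase, with adjusted p of 5.2e-07 and 3.4e-06. The number of these 46, or of the nucleotide supply genes below, that passed the filter only through DKO was not examined. Among the 46, 1 gene had 0 counts over both p53KO libraries. In DKO fewer than 27 rose with any 1 library left out, and not every such fit kept 0 lower. In KO 3 of these 46 rose, a share of 6.52% against 6.92% of all genes, and 0 to 1 did so with 1 library left out. In DKO TAM 7 rose (15.2% against 8.61%) and 1 fell, and 3 to 5 rose with 1 library left out. Of 17 further nucleotide supply genes 5 rose in DKO, a share of 29.4% and thus close to that of all genes, and 3 fell, where 25.7% of all genes were lower. In KO 2 rose and 2 fell, where 7.88% of all genes were lower. In DKO TAM 2 rose and 4 fell, where 10.1% of all genes were lower. Those that fell in DKO were Paics (-1.21), Shmt1 (-1.53) and Mthfd1 (-1.58) of purine and folate metabolism, with adjusted p of 2.2e-07, 1.6e-06 and 6.4e-07. Shmt1 and Paics were also lower in KO (-0.85 and -0.56, adjusted p = 0.0025 and 0.0028), and in DKO TAM 4 were lower: Shmt1 (-1.08), Mthfd1 (-0.64), Cad (-0.60) and Paics (-0.36), with adjusted p of 3.1e-04, 0.0099, 0.018 and 0.032. In DKO TAM the call for Mthfd1 was lost with p53KO TAM replicate 1 (0.067) or DKO TAM replicate 2 (0.12) left out, that for Cad with p53KO TAM replicate 1 (0.18) or DKO TAM replicate 1 (0.16) left out and that for Paics with p53KO TAM replicate 1 (0.094), p53KO TAM replicate 2 (0.17), DKO TAM replicate 1 (0.13) or DKO TAM replicate 2 (0.097) left out.

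Upstream of these genes, both activators and brakes of the G1/S step rose in DKO. Of 20 tested G1/S regulators, 13 rose and 3 fell in DKO, a share of 65% higher against 25.7% of all genes. In KO and in DKO TAM 2 rose and 1 fell, or 10% higher, near the 6.92% and 8.61% of all genes. In DKO fewer than 13 rose with any 1 library left out. How many of the 20, and of the checkpoint genes below, passed the filter only through DKO was not examined. Of the 20, 1 had 0 counts over both p53KO libraries. Ccna2, for cyclin A2, rose in all 3 deletions, at 1.52 ± 0.45, 4.30 ± 0.33 and 1.69 ± 0.37 (adjusted p = 0.034, 5.8e-08 and 0.0056); its call in KO was lost on leaving out FF replicate 2 (adjusted p = 0.32) or KO replicate 2 (0.21) and in DKO TAM without p53KO TAM replicate 1 (0.062). Skp2, which targets the inhibitor p27 for destruction, rose in DKO (2.16 ± 0.27, adjusted p = 5.5e-06), as did the inhibitor gene Cdkn1c (3.56 ± 0.39, adjusted p = 1.2e-06). In the Rb family Rbl1 rose (2.51 ± 0.23, adjusted p = 1.8e-07), Rbl2, the member typical of resting cells, fell (-1.22 ± 0.13, adjusted p = 8.4e-07), and Rb1 stood at 0.02 ± 0.13 (adjusted p = 0.92). Of 9 replication checkpoint genes 4 rose in DKO, or 44.4% against 25.7% of all genes. Among them was Chek1, the kinase Clspn serves (2.17 ± 0.42, adjusted p = 4.1e-04). In KO 2 of the 9 fell, where 7.88% of all genes were lower. Of these, Etaa1 was not called by DESeq2 (-0.61, adjusted p = 0.10) or in an edgeR fit on the FF and KO libraries alone (-0.60, adjusted p = 0.074). In DKO TAM 1 rose, or 11.1%, near the 8.61% of all genes. Some checkpoint calls were lost with 1 library left out in each of the 3 comparisons.

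Cdkn1a, the gene of p21, was at 1.13 and 0.864 CPM in FF and 64.4 and 83.0 in KO libraries (6.21 ± 1.14, adjusted p = 0.015). It had 1 count in the p53KO libraries together and 498 in the DKO libraries, a ratio of 223 with a counting interval of 39.8 to 8819 (adjusted p = 0.013), at 10.6 and 31.9 CPM in DKO. In KO the call was lost without FF replicate 1 (0.088), FF replicate 2 (0.12) or KO replicate 2 (0.058), and in DKO without p53KO replicate 1 (0.096) or p53KO replicate 2 (0.066). Cdkn1b, the gene of p27, was higher in DKO by 0.46 ± 0.15 (adjusted p = 0.019), a call lost without p53KO replicate 1 (0.22), DKO replicate 2 (0.066) or DKO replicate 3 (0.086). Of 10 E2F and DP genes, 5 rose and 1 fell in DKO, among them E2f1 from 2.56 and 1.5 to 5.68 and 6.50 CPM (1.54 ± 0.34, adjusted p = 0.0013), while Tfdp2 fell (-0.61, but 0.16 with library totals as the scale). Of all tested genes 25.7% were higher in DKO and 25.7% lower, and 6.92% were higher in KO and 8.61% in DKO TAM. How many of the 10 passed the filter only through DKO was not examined. By edgeR and by DESeq2 0 of the 10 rose in KO or DKO TAM, and at an unadjusted p under 0.05 0 were higher in KO and 1 in DKO TAM. By edgeR 1 of the 10, Tfdp2, was lower in KO, where 7.88% of all tested genes were lower. With library totals as the scale it stood at -0.33 there and was not called. In DKO TAM 0 of the 10 were lower by edgeR. At an unadjusted p under 0.05, 2 were lower in KO and 1 in DKO TAM. Of the 19 members whose promoter held an E2F motif, 17 rose in DKO (among them the 4 that passed the filter only through DKO), with a median of 2.22. Of the 12 matched members without the motif 8 rose and Mcm10 fell, with a median of 1.27. The latter include none of those 4 genes, so the 2 sets were not selected alike. Their counts and medians in DKO cannot be compared as equals. After tamoxifen the medians were 0.12 and 0.28. These are descriptions of which letters stand in the window.

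Genes of later cell cycle steps were also called after tamoxifen. Of 20 genes of G2/M and mitosis, all 20 rose in DKO, 8 rose in KO and 16 rose in DKO TAM, with medians of 4.897, 1.37 and 2.0. Of all tested genes 25.7%, 6.92% and 8.61% were higher in these comparisons. By edgeR, by DESeq2 or at an unadjusted p under 0.05, 0 of the 20 fell in any of the 3. In DKO TAM the 37 members beside them had a median of 0.17. Some of the 20 had few counts in the controls, so the size of their rise is uncertain. Over both p53KO libraries Ube2c had 0 counts, and Bub1, Ccnb1 and Plk1 had 2 each. In p53KO TAM Cdc20 and Ube2c had 2 and Ccnb1 had 3. How many of the 20 passed the filter only through DKO was not examined. Kif11, a spindle motor, rose by 1.10 ± 0.19 and Aurka, a spindle kinase, by 2.01 ± 0.28 in DKO TAM (adjusted p = 9.4e-04 and 1.2e-04). In DKO these genes rose by 4.30 ± 0.18 and 4.04 ± 0.25. The count in DKO TAM was 11 without p53KO TAM replicate 1, 9 without p53KO TAM replicate 2, 15 without DKO TAM replicate 1 and 12 without DKO TAM replicate 2. In KO it was 10, 4, 6 and 4 without FF replicates 1 and 2 and KO replicates 1 and 2.

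**Figure D4:**
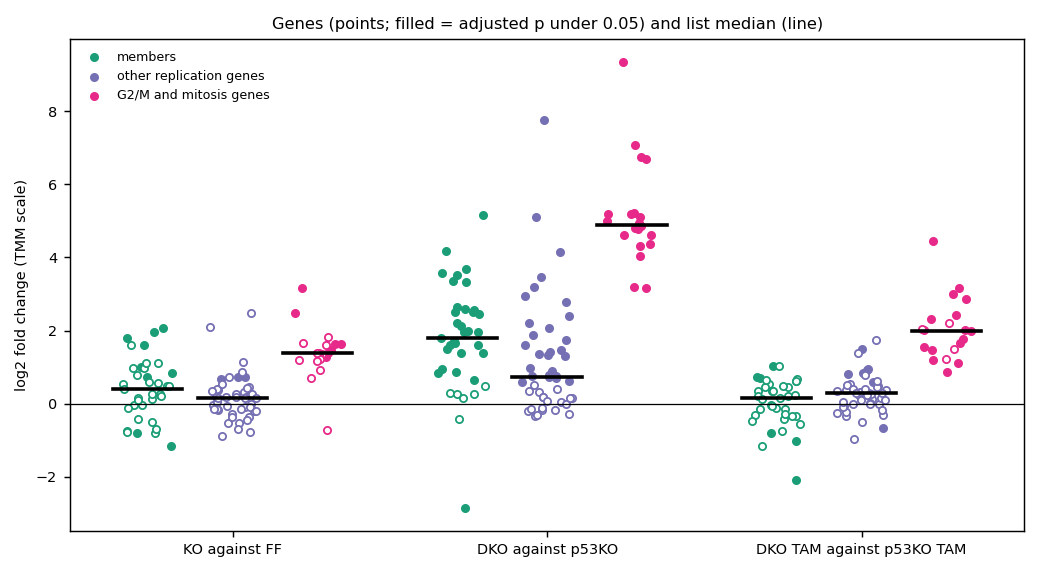
Log2 fold change (y axis, TMM scale) of single genes (points, filled where the adjusted p is under 0.05) in 3 comparisons (x axis) for the 37 members, 46 other replication genes and 20 genes of G2/M and mitosis, with each list's median as a line. In DKO TAM against p53KO TAM the mitosis genes center at 2.0 while the members center at 0.17; points are spread sideways to separate them.

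Markers of several cell types moved with the same groups. The 10 hepatocyte markers summed to 124712 and 126623 CPM in FF, 70271 and 80092 in KO, 139910 and 141791 in p53KO and 39711 and 41963 in DKO libraries, and to 130622 and 133468 in p53KO TAM against 62230 and 64431 in DKO TAM; 7 were lower in KO, 10 in DKO and 5 in DKO TAM. Stellate cell and fibroblast markers summed to 360 and 370.0 CPM in p53KO and 1286 and 1337 in DKO, where 8 of 8 rose, with 1 of 8 higher in KO and 1 lower in DKO TAM. Macrophage markers summed to 327 and 353 CPM in p53KO and 696 and 725 in DKO, where 6 of 7 rose, with 1 of 7 in each of KO and DKO TAM. Of the 6 tested cholangiocyte markers 5 rose in DKO. Of 8 endothelial markers 2 rose and 4 fell in DKO, and 5 fell in DKO TAM. Of 3 tested erythroid markers 1 rose and 2 fell in DKO. The erythroid list summed to 282 and 308 CPM in p53KO and 205 and 161 in DKO libraries. Of all tested genes 25.7% were higher and 25.7% lower in DKO, 6.92% and 7.88% in KO, and 8.61% and 10.1% in DKO TAM. The share of endothelial markers higher in DKO (25%) was thus near that of all genes. How many of the markers passed the filter only through DKO was not examined. T and NK cell, B cell and neutrophil markers summed to at most 16.8 CPM in any library. In such bulk tissue fewer cells of a type and less RNA per cell cannot be told apart, and the part of other cell types in the changes of the 37 genes was not tested.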

How the data were processed

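Liver RNA was made into libraries with the SMARTer Stranded Total RNA kit, per the labels' protocols. The deposited values are raw counts, whole reads per gene; per the submitters' processing notes the authors used CASAVA 1.82, HISAT2 and featureCounts with mm10 (GRCm38). Per the file headers of the 4 files at 7 weeks, featureCounts 1.6.4 counted exons without a strand option, so overlapping genes can share or lose reads.

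Counts were analysed with edgeR 4.0.16 in R 4.3.3: filterByExpr (groups given, smallest count 10), TMM scaling, a model with 1 mean for each of 6 groups (residual degrees of freedom 6; common BCV, the biological coefficient of variation, 0.124) and the robust quasi-likelihood F test, adjusted by Benjamini-Hochberg over 13693 genes. The SE is the log2 fold change over the square root of F; 95% intervals use 6 degrees of freedom. TPM was computed from counts and the exon lengths in the files. Counts of 1 to 3 in a group give an exact binomial interval, for counting error only. The method was tested on simulated data. DESeq2 1.42.0 and limma 3.58.1 (voom) served as alternatives, beside other scalings, filters and left-out libraries.

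The 37 members, the lists and the tests were chosen with earlier results of these data known. Any member could be named; from each other list, at most 5 called genes with the smallest p per comparison, Polr2m and Trp53 as label checks, and always Cdkn1a, Ccna2, E2f1, Rb1 and Cdkn1b. Gene coordinates are those of the files; promoters come from RefSeq (GRCm38.p6). DKO replicates are numbered 2 and 3 by their titles.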

Additional observations from a re-analysis of the deposited data

Results flagged for a closer look

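For 48 results the effect of the deletion differed between experiments by a test of the difference itself in edgeR (adjusted p under 0.05), in 22 genes for DKO against KO and in 26 for DKO against DKO TAM. Both differences use the DKO and p53KO libraries, so they are not independent of each other, and age, tamoxifen and p53 cannot be told apart in them. Orc1, Cdc6 and Dtl, listed below, passed the filter on low counts only through the DKO libraries, where they were high.

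As log2 differences, DKO minus KO, the genes gave Ccnd2 0.86, Ccne2 2.02, Cdk2 1.03, Cdt1 1.99, Mcm2 2.65, Mcm3 1.69, Mcm4 1.53, Mcm5 1.95, Mcm6 2.46, Mcm7 1.13, Mcm10 -1.71, Cdc45 1.78, Pola1 1.44, Prim1 1.43, Pcna 0.78, Fen1 1.24, Lig1 1.32, Clspn 2.23, Dtl 3.15, Rrm1 1.59, Rrm2 3.12, Chaf1a 2.04. Of these 22 differences, 11 held whichever library was left out: those of Ccne2, Mcm2, Mcm4, Mcm6, Mcm7, Pola1, Pcna, Dtl, Rrm1, Rrm2 and Chaf1a. The number higher fell from 21 to 13 without FF replicate 1 and to 13 without KO replicate 2. Pola1 and Cdk2 were the members called lower in KO whose difference from DKO was above 0.

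As log2 differences, DKO minus DKO TAM, they gave Ccnd1 3.06, Ccnd2 1.63, Ccne2 1.30, Orc1 3.28, Cdc6 5.72, Cdt1 1.86, Mcm2 1.78, Mcm3 1.99, Mcm4 1.77, Mcm5 3.10, Mcm6 2.62, Mcm7 1.55, Mcm10 -2.73, Cdc45 2.68, Gins2 1.997, Pola1 1.11, Prim1 2.30, Pcna 1.27, Lig1 2.63, Clspn 4.50, Dtl 2.33, Rrm1 1.27, Rrm2 4.45, Tk1 1.68, Chaf1a 2.02, Uhrf1 4.06. Of these 26, 19 held whichever library was left out, and the number higher ranged from 21 to 26. Ccnd2 and Lig1 were called higher in DKO and lower in DKO TAM, but neither fall was called with library totals as the scale. The difference for Tk1 comes with a fall in DKO TAM (-2.09) and no call in DKO (-0.41). Mcm10 has a difference below 0 in both sets.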

How the results depend on the processing

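None of the called values of the 37 genes changed sign in any alternative, and in DKO 29 of 31 calls held under every alternative scaling, filter, tool and left-out library (a 2-fold minimum aside). Of the genes of other lists, Polr2m in DKO went from -0.70 to 0.07 and Tfdp2 from -0.61 to 0.16 when library totals were the scale. That scale also raised the median of the 37 in KO to 0.64 with 0 lower, in DKO to 2.56, in DKO TAM to 0.51 with 9 higher and 1 lower, for DKO minus KO to 1.84 with 0 lower, and for DKO minus DKO TAM to 2.10. Upper quartile scaling gave medians of 2.01 in DKO, 1.52 for DKO minus KO and 1.86 for DKO minus DKO TAM. Over all tested genes, library totals turned 947 higher and 1079 lower in KO into 2744 and 550, 3516 and 3525 in DKO into 8823 and 959, and 1179 and 1380 in DKO TAM into 4346 and 586. DESeq2 called 3 members higher in KO, 1 in DKO TAM and 1 in p53KO against FF, and fitting only the libraries compared gave 1 in p53KO against FF and a median of 0.27 in KO. With limma-voom the median in DKO TAM was 0.077. Without an expression filter 0 were lower for DKO minus KO. At an adjusted p under 0.01, 1 was higher and 0 lower in KO, 1 higher in DKO TAM, and 12 higher and 0 lower for DKO minus KO. A 2-fold minimum left 4 higher and 1 lower in KO and 1 higher in DKO TAM. With 1 library left out, members higher and lower numbered 1 to 4 and 0 to 1 in KO (median 0.31 to 0.44), 29 to 30 and 1 in DKO (1.69 to 1.95), 0 to 4 and 2 to 3 in DKO TAM (0.012 to 0.20), 13 to 17 and 0 to 1 for DKO minus KO (1.24 to 1.59), 21 to 26 and 1 for DKO minus DKO TAM (1.51 to 1.79), and 0 and 0 for p53KO against FF (0.08 to 0.20). A group cut to 1 library is assumed to vary like the others. With the replicate number of the descriptions as a block, 7 were higher and 3 lower in KO, 30 and 1 in DKO, 3 and 3 in DKO TAM (Mcm2 was lost, adjusted p = 0.068), 19 and 1 for DKO minus KO, 25 and 1 for DKO minus DKO TAM, and 0 and 0 for p53KO against FF. Deviations of same-numbered libraries correlated at 0.11 at 7 weeks, -0.07 at 8 weeks and -0.01 after tamoxifen, and the labels give the numbers no other meaning, so the block is a check only. Depth limits Ccne1, Gins2, Cdc6, Orc1, Ung, Clspn, Dtl, Chaf1b and Uhrf1, among others, which lie near or under 1 CPM in some controls. Where an alternative moved a value, the cause was not tested.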
